A study of Mus musculus with 95 samples.

Results

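Cyp3a11, Cyp3a13 and Cyp3a25 are mouse genes of the cytochrome P450 3A family, and they were chosen by symbol: the 3 probe sets of the deposited expression table that carry these names, of 16464 probe sets with 1 gene symbol. Their signals were read on 95 Affymetrix arrays, each of RNA from the left lateral lobe of the liver. The mice were male, of strain C57BL/6, 10 weeks old and 21 to 27 g in weight, and were dosed by oral gavage with a vehicle or with 1 of 3 drugs that induce steatosis, the build-up of fat in the liver. Amiodarone, an antiarrhythmic drug, was given at 6.7, 20 or 60 mg/kg, valproic acid, an antiepileptic drug that also inhibits histone deacetylases, at 125, 250 or 500 mg/kg, and tetracycline, an antibiotic, at 14.8, 44 or 133 mg/kg. The highest dose of each drug was sampled after 1, 4 and 11 days and the lower doses after 11 days only. Amiodarone and valproic acid shared a vehicle group of PBS on each day, and tetracycline had its own vehicle, water with ascorbic acid. This gives 15 treated and 6 vehicle groups, with 4 arrays per group on days 1 and 4 and 5 on day 11. Each treated group was compared with the vehicle of its own day.

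CYP3A enzymes sit in the membrane of the endoplasmic reticulum and oxidise a wide range of drugs, steroids and bile acids, mainly in hepatocytes and in the epithelium of the small intestine. Transcription of the family is controlled by the xenobiotic receptors PXR (gene Nr1i2) and CAR (gene Nr1i3), which pair with RXR on DNA, and by liver factors such as HNF4A. Inflammatory cytokines are known to lower the transcription of many P450 genes in liver. Cyp3a11 encodes the main hepatic CYP3A enzyme of adult male mice and is the usual readout of PXR activation, Cyp3a25 is another CYP3A enzyme of mouse liver, and Cyp3a13 is expressed in both liver and intestine.

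The genes lie on mouse chromosome 5 on the minus strand. The 250 bases before each RefSeq start (build GRCm38.p6) are shown because Cyp3a13 rose while Cyp3a11 and Cyp3a25 fell after 1 day of valproic acid. They lie at chr5:145879855-145880104 for Cyp3a11, chr5:137921620-137921869 for Cyp3a13 and chr5:146009619-146009868 for Cyp3a25, and capitals mark every match to the motifs named in the next paragraph.
Cyp3a11: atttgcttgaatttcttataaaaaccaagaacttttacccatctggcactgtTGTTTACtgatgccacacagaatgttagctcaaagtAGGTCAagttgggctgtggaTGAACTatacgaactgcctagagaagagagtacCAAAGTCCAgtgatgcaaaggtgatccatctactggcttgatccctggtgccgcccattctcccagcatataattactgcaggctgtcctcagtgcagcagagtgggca
Cyp3a13: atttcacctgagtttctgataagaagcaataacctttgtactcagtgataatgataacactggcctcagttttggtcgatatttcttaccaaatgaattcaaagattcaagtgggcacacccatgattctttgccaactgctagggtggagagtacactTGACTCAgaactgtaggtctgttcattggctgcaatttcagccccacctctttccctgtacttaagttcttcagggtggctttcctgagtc
Cyp3a25: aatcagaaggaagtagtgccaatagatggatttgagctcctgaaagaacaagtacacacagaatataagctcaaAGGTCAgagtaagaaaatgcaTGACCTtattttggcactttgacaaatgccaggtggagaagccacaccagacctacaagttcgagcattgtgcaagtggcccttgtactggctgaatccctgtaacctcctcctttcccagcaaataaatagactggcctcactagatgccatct

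Aligned end to end, the Cyp3a11 and Cyp3a13 windows were identical at 51.9% of aligned positions, those of Cyp3a11 and Cyp3a25 at 49.0% and those of Cyp3a13 and Cyp3a25 at 42.2%. The Cyp3a11 window was closer to that of Cyp3a44, at 71.7%. A set of 7 motifs, chosen after these sequences had been seen, was searched on both strands. The nuclear receptor half-site AGGTCA was found in Cyp3a11, 162 bases before the start, and in Cyp3a25 on each strand, 176 and 155 bases before it; 14.0% of the 32851 RefSeq windows hold it. AGTTCA, a second form of the half-site, was found in Cyp3a11 alone among the 3 genes (142 bases before the start, 11.8% of windows). The Cyp3a11 window also held CAAAGTCCA, a sequence of the HNF4 type (109 bases before the start, 0.384% of windows), and TGTTTAC, of the FOXA type (198 bases, 3.17%). The only match in Cyp3a13 was TGAGTCA, of the AP-1 type, read on the opposite strand as TGACTCA, 91 bases before the start (4.46% of windows). TTGCNNCAA (1.74% of windows) and the classical NF-kB motif (0.14%) were found in none of the 3 windows. The C/EBP palindrome has a shorter gap than TTGCNNCAA, so C/EBP sites were not searched for, and their absence cannot be read from this. A match is a description of letters, and no binding was measured.

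The probe set signals were high in all livers. Ranked by mean signal among the 16464 probe sets, that of Cyp3a11 was 8th, with a mean log2 value of 13.06, that of Cyp3a25 was 100th (11.7) and that of Cyp3a13 was 574th (9.52). The ranks describe probe sets, since signals of different probe sets do not compare transcript amounts. Cyp3a11 thus lay near the top of the array's scale, and whether the scale is compressed there was not tested. Cyp3a11 also varied little between arrays of a group. Its residual SD, which the limma fit draws toward a value common to all genes, was 0.0707. Of all probe sets, 99.6% had a larger one. The residual SD was 0.119 for Cyp3a25 and 0.199 for Cyp3a13. Of the 9 protein-coding Cyp3a genes in the RefSeq table, 5 had a probe set. The other two were Cyp3a44, with a moderate signal (mean 6.08), and Cyp3a16, whose mean of 2.39 lay below the median of all probe set means, 3.1. Cyp3a genes are close copies of each other, and hybridisation between copies was not tested.

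The arrays were of like quality: medians ran from 3.06 to 3.13 and correlations between arrays from 0.977 to 0.996, and no pair was identical. Of 7 hepatocyte markers, 6 were measured, and all 6 were above the array median in the PBS and valproic acid groups of days 1 and 4. For the small intestine epithelium, which also expresses Cyp3a genes, 4 of 5 measured markers had means below the array median there. Nothing in the labels states that every array comes from its own animal, so p-values measure the spread between these samples, which may be technical. Liver is a mixed tissue, in which fewer cells of a type and less RNA per cell cannot be told apart. Differences were tested with limma on log2 values of all 95 arrays, with Benjamini-Hochberg adjustment over 16464 genes, and were called at an adjusted p under 0.05.

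Across the 45 tests of the 3 genes against vehicle, 8 were called: 3 for Cyp3a11, 4 for Cyp3a13 and 1 for Cyp3a25. Over all genes, 3.1% of the tests in the same 15 comparisons were called. Valproic acid moved all 3 genes after 1 day, Cyp3a13 upward and the others downward, and only the Cyp3a13 change was still called later. Amiodarone raised Cyp3a11 by a small amount. Under tetracycline none of the 3 passed the test at any dose or day.

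**Figure D1:**
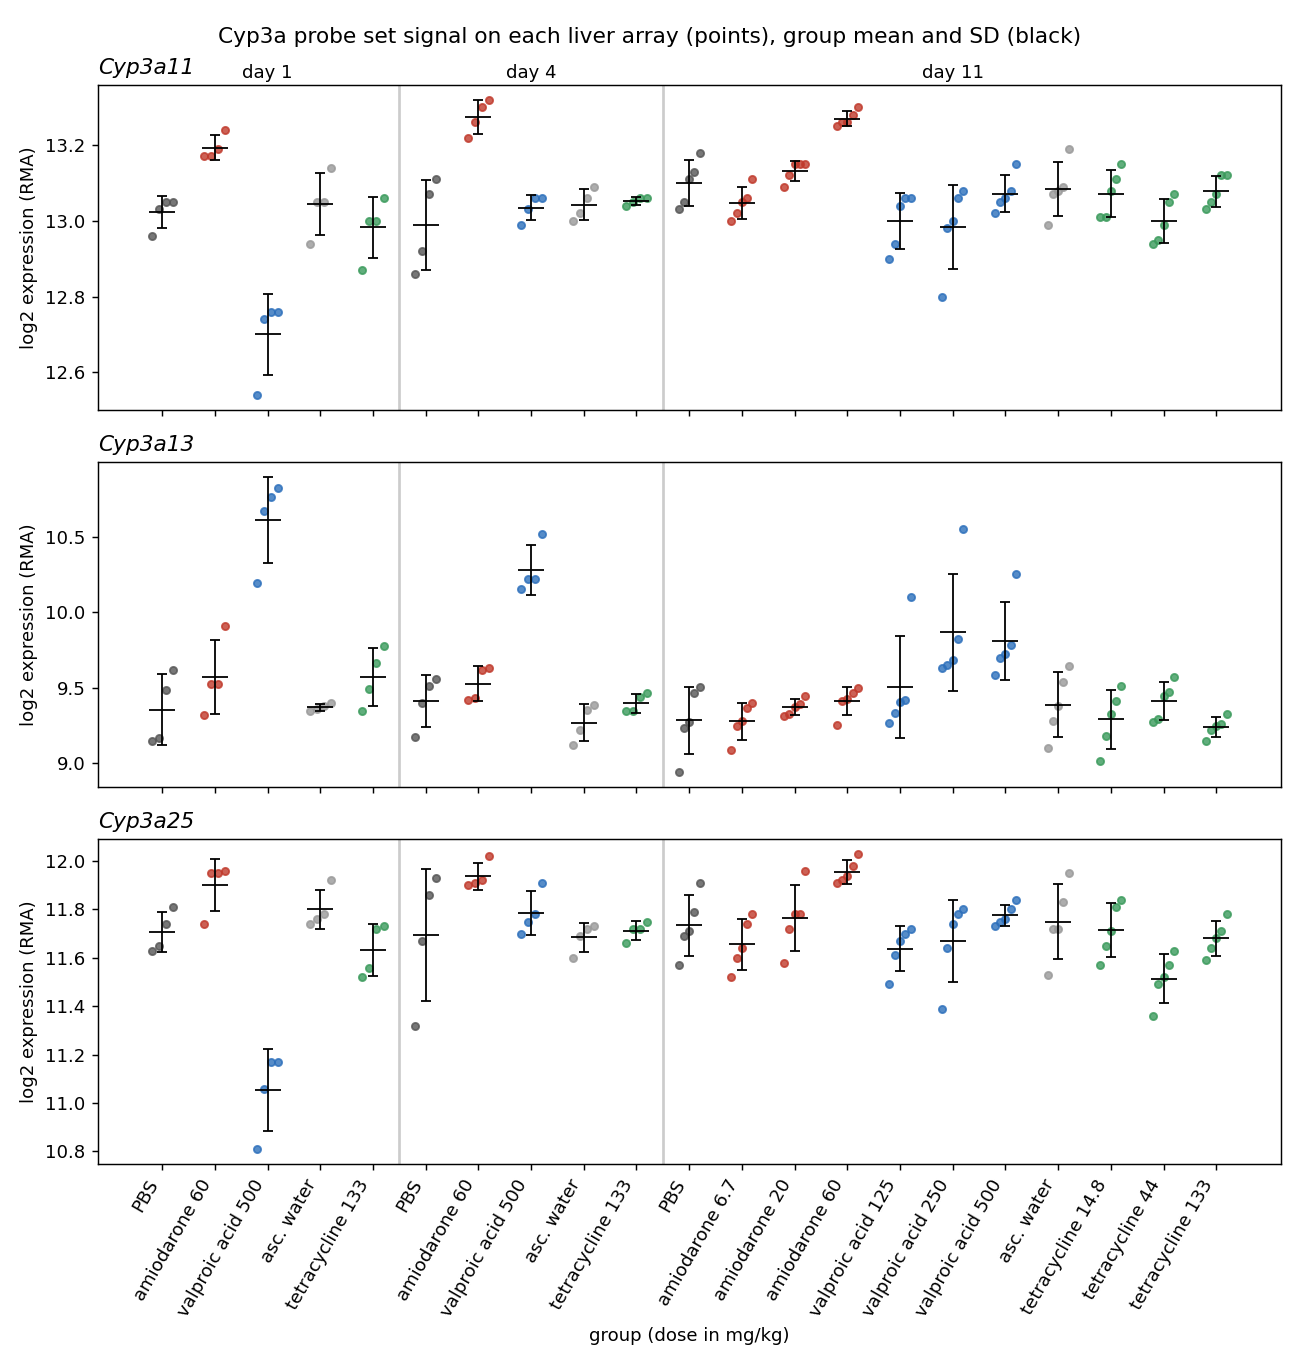
Log2 signal of the 3 Cyp3a probe sets on each of the 95 arrays (points), by group and day, with the group mean and SD in black; the y axes differ and do not start at 0. On day 1 the valproic acid arrays are below every PBS array for Cyp3a11 and Cyp3a25 and above every PBS array for Cyp3a13, and the 60 mg/kg amiodarone arrays are the highest groups for Cyp3a11.

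Cyp3a13 was the gene that valproic acid raised. After 1 day at 500 mg/kg its log2 values were 10.19, 10.67, 10.76 and 10.82, against 9.15, 9.17, 9.48 and 9.62 under PBS. All treated arrays lay above all vehicle arrays, and the rise was 1.26 ± 0.14 on the log2 scale (SE), or 2.39-fold (limma, adjusted p = 2.27e-11). In that comparison 15.7% of all genes were called, 7.99% as higher and 7.73% as lower.

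After 4 days the treated arrays read 10.15, 10.22, 10.22 and 10.52 and the PBS arrays 9.17, 9.40, 9.51 and 9.56, again without overlap. The Cyp3a13 rise was 0.87 ± 0.14 (SE), or 1.82-fold (limma, adjusted p = 1.76e-05), in a comparison that called 2.36% of all genes, 1.32% as higher and 1.04% as lower. After 11 days at 500 mg/kg the values were 9.58, 9.69, 9.72, 9.78 and 10.25, against 8.94, 9.23, 9.27, 9.47 and 9.50 under PBS. The groups still did not overlap, and the difference was 0.52 ± 0.13 (SE; limma, adjusted p = 0.00246; 9.03% of genes called, 5.89% as higher and 3.14% as lower). The effect on day 11 was smaller than that on day 1, by a tested difference of -0.73 (95% confidence interval -1.11 to -0.36; limma, adjusted p = 0.00332; 12.3% of genes called for this difference). The differences between days 4 and 1 (-0.39, adjusted p = 0.295) and between days 11 and 4 (-0.34, adjusted p = 0.429) did not pass the test, with intervals from -0.79 to 0.0046 and from -0.72 to 0.031.

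Lower doses of valproic acid were given for 11 days only. At 250 mg/kg the Cyp3a13 values were 9.63, 9.65, 9.68, 9.82 and 10.55, all above the PBS arrays, a rise of 0.58 ± 0.13 (SE; limma, adjusted p = 0.00141; 4.26% of genes called, 2.76% as higher and 1.49% as lower). At 125 mg/kg they were 9.26, 9.33, 9.40, 9.42 and 10.10, which overlapped the PBS arrays except for the highest (difference 0.22, adjusted p = 0.637; 0.0547% of genes called, 0.0425% as higher and 0.0121% as lower). The slope of Cyp3a13 on dose rank, from vehicle to the highest dose, was 0.19 per step (95% confidence interval 0.11 to 0.27; limma, adjusted p = 0.000263; 9.94% of genes called, 6.32% as higher and 3.62% as lower). Fitted on only the arrays compared, the rise at 250 mg/kg was no longer called (adjusted p = 0.133, range over its alternatives 0.0008 to 0.133).

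In each of the 3 day 11 valproic acid groups, a single array had the highest Cyp3a13 value and also the highest mean of 20 acute phase and inflammation genes, liver proteins and cytokines that rise in inflammation. Array 056 of the 125 mg/kg group had an acute phase mean of 9.84 against 7.53 to 8.02 on the other 4 arrays. Array 067 of the 250 mg/kg group had 9.98 against 7.69 to 8.08, and array 049 of the 500 mg/kg group 9.02 against 7.47 to 7.86. Their values of Lcn2, a secreted acute phase protein, were 11.61, 12.31 and 10.95, and no other array of these groups exceeded 7.53. Without these 3 arrays, an alternative added after the values were seen, the Cyp3a13 rise was 0.41 at 500 mg/kg (limma, adjusted p = 0.00516), 0.41 at 250 mg/kg (adjusted p = 0.0139) and 0.073 at 125 mg/kg (adjusted p = 0.93).

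Cyp3a11 and Cyp3a25 fell after 1 day of valproic acid. The treated arrays of Cyp3a11 read 12.54, 12.74, 12.76 and 12.76, against 12.96, 13.03, 13.05 and 13.05 under PBS. All 4 lay below all vehicle arrays, and Cyp3a11 fell by 0.32 ± 0.05 on the log2 scale (SE), 1.25-fold lower (limma, adjusted p = 4.28e-07). For Cyp3a25 the treated values were 10.81, 11.06, 11.17 and 11.17 and the PBS values 11.63, 11.65, 11.74 and 11.81. These groups were also separate, with a fall of 0.65 ± 0.08 (SE), 1.57-fold lower (limma, adjusted p = 2.72e-09).

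Neither fall was seen on later days. Cyp3a11 read 12.99, 13.03, 13.06 and 13.06 on day 4, within the PBS range of 12.86 to 13.11 (difference 0.05, adjusted p = 0.805). Cyp3a25 read 11.70, 11.75, 11.78 and 11.91, within the PBS range of 11.32 to 11.93 (difference 0.09, adjusted p = 0.756). On day 11 at 500 mg/kg Cyp3a11 differed from PBS by -0.03 (adjusted p = 0.813) and Cyp3a25 by 0.04 (adjusted p = 0.827), with overlapping arrays. The change from day 1 was itself called: for Cyp3a11 the effect was higher by 0.37 on day 4 (limma, adjusted p = 0.000159) and by 0.29 on day 11 (0.000782), and for Cyp3a25 by 0.74 (5.04e-06) and 0.70 (1.73e-06). Fitted on only the arrays compared, the day 4 difference of Cyp3a11 was no longer called (adjusted p = 0.0677, range over its alternatives 6.27e-06 to 0.0677). The day 4 difference called 6.07% of all genes. At 250 and 125 mg/kg the differences were -0.11 and -0.10 for Cyp3a11 (adjusted p = 0.147 and 0.491) and -0.064 and -0.095 for Cyp3a25 (0.773 and 0.767), and none was called.

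Amiodarone at 60 mg/kg raised Cyp3a11. On day 4 its values were 13.22, 13.26, 13.30 and 13.32, against 12.86, 12.92, 13.07 and 13.11 under PBS, a rise of 0.29 ± 0.05 (SE), or 1.22-fold (limma, adjusted p = 2.24e-05; 6.21% of genes called, 4.01% as higher and 2.2% as lower). On day 11 they were 13.25, 13.26, 13.26, 13.28 and 13.30, against 13.03, 13.05, 13.11, 13.13 and 13.18, a rise of 0.17 ± 0.04 (SE), or 1.13-fold (adjusted p = 0.0061; 7.05% of genes called, 4.24% as higher and 2.81% as lower). On day 1 the values of 13.17, 13.17, 13.19 and 13.24 also lay above all PBS arrays, but the difference of 0.17 was not called (limma, adjusted p = 0.0963; 0.796% of genes called, 0.674% as higher and 0.121% as lower). Fitted on only the arrays compared, both calls were lost, at adjusted p = 0.0604 on day 4 (range over its alternatives 3.72e-06 to 0.0604) and 0.127 on day 11 (0.00222 to 0.127).

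Cyp3a25 showed differences of similar size that did not pass the test: 0.19 on day 1 (limma, adjusted p = 0.435), 0.24 on day 4 (0.0723) and 0.22 on day 11 (0.057). Its day 11 values were 11.91, 11.92, 11.94, 11.98 and 12.03, against 11.57, 11.69, 11.71, 11.79 and 11.91 under PBS. The lowest treated array and the highest vehicle array agreed to 2 decimals, and the treated array was just above. With dim probe sets left out the adjusted p fell to 0.0408 on day 4 and 0.0322 on day 11. Over the alternatives it ran from 0.0408 to 0.337 on day 4. On day 11 it ran from 0.0322 to 0.121, beside an unadjusted exact permutation p of 0.00794. Single PBS arrays moved these values both ways: without array 040, the lowest on day 4, the difference was 0.12 (adjusted p = 0.586), and without 041 or 044 it was 0.32 (0.0173) or 0.30 (0.0334). On day 11 it ran from 0.18 to 0.27 with 1 array left out and was called without array 032 (0.0239). Cyp3a13 overlapped PBS on all 3 days, with differences of 0.22, 0.12 and 0.13 (adjusted p = 0.726, 0.799 and 0.687). With 1 array left out these ran from 0.10 to 0.30 on day 1, from 0.035 to 0.16 on day 4 and from 0.043 to 0.18 on day 11, and none was called.

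At lower doses no call was made. At 20 mg/kg the differences on day 11 were 0.03 for Cyp3a11, 0.09 for Cyp3a13 and 0.03 for Cyp3a25, and at 6.7 mg/kg none exceeded 0.08 in size; all overlapped PBS and none was called (at 20 mg/kg 0.322% of genes were called, 0.261% as higher and 0.0607% as lower, and at 6.7 mg/kg 0). The slope on dose rank was 0.06 per step for Cyp3a11 (limma, adjusted p = 0.00199) and 0.08 for Cyp3a25 (0.0294), where 7.02% of genes were called, 4.21% as higher and 2.81% as lower, and 0.05 for Cyp3a13 (0.603). The Cyp3a25 slope was no longer called without array 002, 020, 033, 062 or 073 (adjusted p from 0.0551 to 0.118), nor on only the arrays compared or with blocks of sample numbers (range over its alternatives 0.0163 to 0.0647). No difference between days passed the test for amiodarone.

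**Figure D2:**
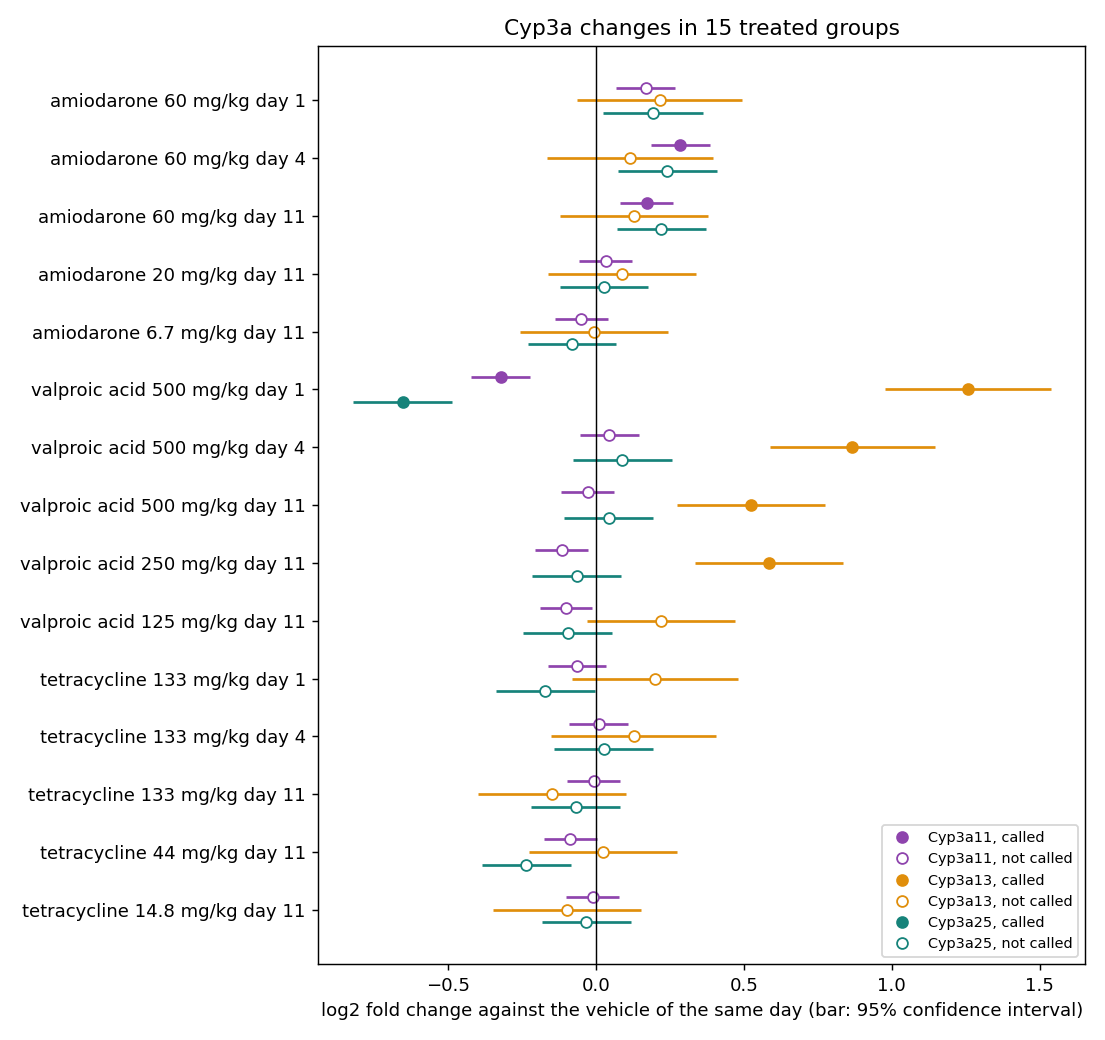
Log2 fold change of the 3 genes against the vehicle of the same day in the 15 treated groups (x axis), with 95% confidence intervals; filled points were called at an adjusted p under 0.05. Cyp3a13 lies right of 0 at 4 valproic acid points that were called, Cyp3a11 and Cyp3a25 lie left of 0 on day 1 of valproic acid, and no tetracycline point is filled.

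Tetracycline gave no call for the 3 genes, where 0.65% of all genes were called at 133 mg/kg on day 1, 0.0243% at 44 mg/kg (0.00607% as higher and 0.0182% as lower) and 0 in the other 3 comparisons. At 133 mg/kg on day 1 Cyp3a25 read 11.52, 11.56, 11.72 and 11.73, all below the vehicle arrays of 11.74, 11.76, 11.78 and 11.92 (difference -0.17, adjusted p = 0.427). At 44 mg/kg it read 11.36, 11.49, 11.52, 11.57 and 11.63, against 11.53, 11.72, 11.72, 11.83 and 11.95 (difference -0.23, limma adjusted p = 0.224). An exact two-sided permutation test of that single comparison gave p = 0.0238, unadjusted. At 133 mg/kg on days 4 and 11 the differences of Cyp3a25 were 0.03 and -0.07, and its slope on dose rank was -0.041 per step (adjusted p = 0.934). The intervals bound the change: on day 11 at 133 mg/kg Cyp3a11 lay between -0.10 and 0.08 and Cyp3a13 between -0.40 and 0.10.

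Of 27 comparisons between drugs at the highest dose on the same day, each relative to its own vehicle, 13 were called. Of all genes, 0.705% to 16.2% were called in the same 9 contrasts. The doses in mg/kg differ between drugs. On day 1 amiodarone exceeded valproic acid by 0.49 for Cyp3a11 (limma, adjusted p = 4.95e-13) and by 0.85 for Cyp3a25 (1.93e-13), while Cyp3a13 was lower by a difference of -1.04 (6.71e-09); 16.2% of genes were called. The amiodarone minus valproic acid difference of Cyp3a11 stayed called on day 4 (0.24, adjusted p = 0.000379; 8.55% of genes called) and day 11 (0.20, 0.00107; 8.06%). That of Cyp3a13 was -0.75 on day 4 (6.55e-05) and -0.40 on day 11 (0.0332), the latter lost without array 012, 033, 039 or 049 (adjusted p from 0.0533 to 0.217) and after quantile normalization (range over its alternatives 0.00693 to 0.0584).

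Against tetracycline, the valproic acid effect on Cyp3a13 was larger by 1.06 on day 1 (adjusted p = 9.02e-05; 6.07% of genes called), by 0.74 on day 4 (0.042; 1.08%) and by 0.67 on day 11 (0.016; 3.85%). The day 4 difference was lost in 13 of 16 fits that left out 1 array, and that of day 11 without array 049 (0.0592) or 002 (0.05). On day 1 the valproic acid effect was below that of tetracycline by -0.26 for Cyp3a11 (0.0125; lost without array 077, 0.0541, or 079, 0.0753) and -0.48 for Cyp3a25 (0.00427). Amiodarone exceeded tetracycline for Cyp3a11 on day 4, by 0.28 (0.011; 3.66% of genes called; lost without array 040, 0.0574). Both Cyp3a11 differences from tetracycline were lost on only the arrays compared (ranges over their alternatives 0.000873 to 0.214 and 0.00471 to 0.112). The 21 differences between vehicles or between days of a vehicle gave 0 calls for the 3 genes, the largest in size being -0.14 for Cyp3a13 on day 4. Of all genes, 0 to 0.784% were called in these comparisons.

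Whether 2 of the genes moved differently in the same livers was tested on the per-array difference of their log2 values. By exact two-sided permutation tests, 10 of 45 had p under 0.05 and 0 passed after adjustment (lowest adjusted p = 0.0893), where the smallest unadjusted p is 0.0286 with 4 arrays against 4 and 0.00794 with 5 against 5. A limma test of the same differences, added after the data were seen, called 9, all under valproic acid. On day 1 the fold change of Cyp3a13 exceeded that of Cyp3a25 by 1.91 (95% confidence interval 1.62 to 2.20; limma, adjusted p = 5.74e-20), and the fall of Cyp3a25 was larger than that of Cyp3a11 by 0.33 (0.17 to 0.49; adjusted p = 0.000656). Under amiodarone 60 mg/kg the intervals of the Cyp3a11 minus Cyp3a25 difference were -0.19 to 0.14 on day 1, -0.12 to 0.21 on day 4 and -0.19 to 0.095 on day 11.

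Over all 21 groups Cyp3a11 was highest in the 3 amiodarone 60 mg/kg groups (13.28 on day 4, 13.27 on day 11 and 13.19 on day 1) and lowest in valproic acid on day 1 (12.7). The lowest mean stood 0.279 below the next, beyond the residual SD, and the step from amiodarone day 11 to day 1 (0.0799) also exceeded it, while the other neighbours in the order lay closer than the residual SD. Cyp3a25 had the same 3 groups at the top (11.96, 11.94 and 11.90) and valproic acid day 1 at the bottom, 0.46 below the next group, the only step larger than its residual SD. Cyp3a13 ran from valproic acid 500 mg/kg day 1 (10.61), day 4 (10.28), 250 mg/kg day 11 (9.87) and 500 mg/kg day 11 (9.81) to 9.24 in tetracycline 133 mg/kg day 11. Its steps from the first to the second, from the second to the third and from the fourth to the fifth group exceeded the residual SD, although neighbouring groups shared a range of values.

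As a description, the group means of Cyp3a11 and Cyp3a25 correlated at r = 0.925 over 21 groups, and at 0.86 without the valproic acid day 1 group. Within groups, over 95 arrays, r was 0.345. Cyp3a13 correlated with Cyp3a11 at -0.558 over group means and -0.124 without that group. Arrays of a group share treatment and day, so the points are not independent.

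Among 8077 genes with a mean signal at or above the median, the genes most like Cyp3a11 over the 21 group means were Abcd3, a peroxisomal fatty acid transporter (r = 0.956), Ces2a, a carboxylesterase (0.945), Cyp3a44 (0.943), Me1, malic enzyme (0.933), and Acaa1b, a peroxisomal thiolase (0.931). The most opposite were the acute phase genes Crp (-0.896) and Fgb (-0.896) and Cpn2 (-0.895). Within groups the closest was Cyp3a44 (0.66), followed by Ugt2b36 (0.53). For Cyp3a25 the closest by group means were Acaa1b (0.94), Mtarc1 (0.936), Ube2h (0.932), Cyp3a11 (0.925) and Igfbp2 (0.915), and the most opposite Sra1 (-0.936). For Cyp3a13 they were Acnat2 (0.949), Lcn2 (0.932), Prg4 (0.931), Naprt (0.93) and Cd302 (0.928), and the most opposite were Hagh, a glyoxalase (-0.971), Cyp2f2, a P450 of periportal hepatocytes (-0.967), and Keg1 (-0.91). Within groups Cyp3a13 lay closest to Ambp (0.708) and Prg4 (0.696).

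The mean of the 20 acute phase genes correlated with the Cyp3a genes, positively for Cyp3a13 and negatively for the others. It was 10.04 to 10.46 on the valproic acid arrays of day 1 and 7.56 to 8.32 on the PBS arrays, and 8.96 to 9.13 against 7.51 to 8.75 on day 4. On day 1, 17 of the 20 rose and 0 fell (median 1.36, against 0.0093 over all genes), led by Lcn2 (7.19), Saa2 (5.45) and Orm2 (5.24); on day 4, 7 rose, and on day 11 at 500 mg/kg 0 did. Under amiodarone 60 mg/kg 3 fell on day 4 and 4 on day 11, among them Itih4 (-0.52), Crp (-0.31) and Fgb (-0.24). Of all genes, 7.99%, 1.32% and 5.89% were called higher under valproic acid 500 mg/kg on days 1, 4 and 11. The shares called lower under amiodarone 60 mg/kg were 2.2% on day 4 and 2.81% on day 11. Over group means the acute phase mean correlated with Cyp3a13 at r = 0.887, with Cyp3a11 at -0.735 and with Cyp3a25 at -0.742, and within groups at 0.625, -0.427 and -0.19. By rank the within-group values were 0.432, -0.289 and -0.184. The group means include valproic acid day 1, and r without it was not computed. On valproic acid day 4 the acute phase mean lay above every PBS array, while Cyp3a11 and Cyp3a25 lay within their PBS ranges. In 11 of 21 groups the array highest in Cyp3a13 was also highest in this mean. The part of inflammation in the Cyp3a changes was not tested.

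**Figure D3:**
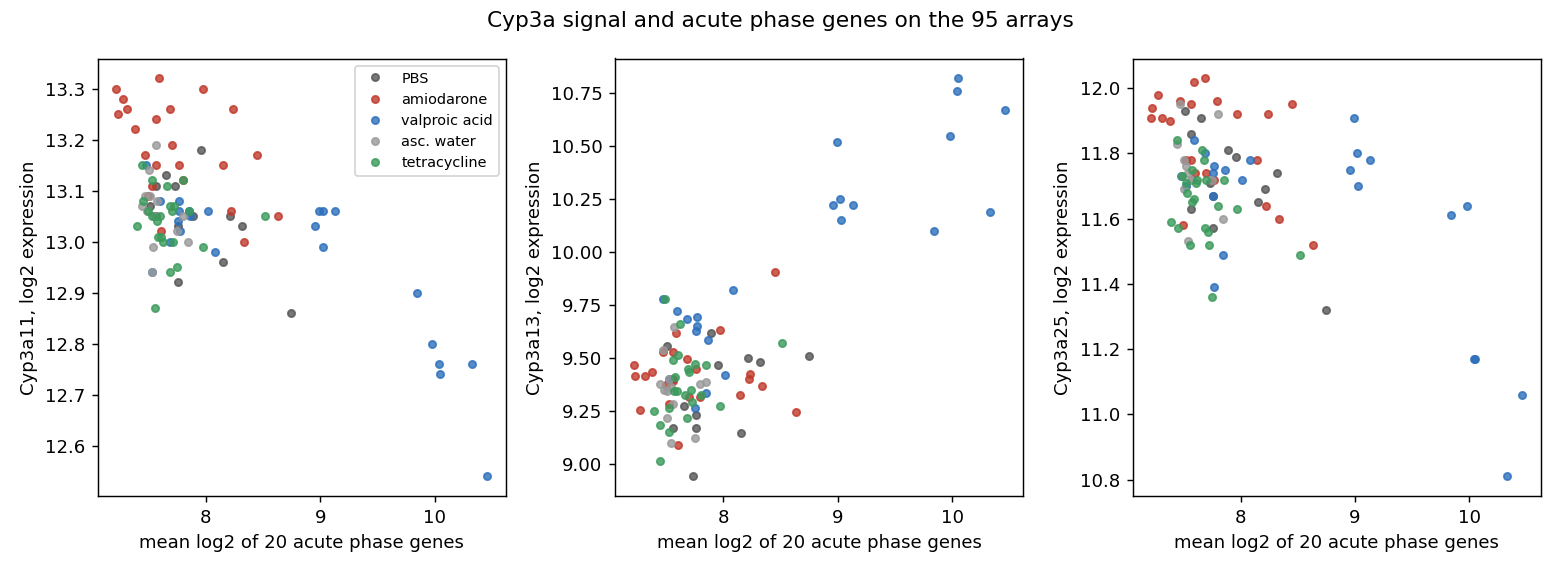
Log2 signal of each Cyp3a gene (y axes) against the mean log2 signal of 20 acute phase and inflammation genes (x axis) on the 95 arrays, coloured by treatment. Arrays with an acute phase mean of 8.957 or more are all from valproic acid groups, and they are high in Cyp3a13; the 4 from day 1, at 10.04 to 10.46, are low in Cyp3a11 and Cyp3a25.

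Counts of called cell type markers stand here beside the shares of all genes, 7.99% higher and 7.73% lower on valproic acid day 1 and 1.32% and 1.04% on day 4. Of 7 Kupffer cell and macrophage markers, 1 rose on day 1 (Cd163, 1.01) and 4 on day 4, among them Vsig4 (0.95) and Csf1r (0.76). Their mean on day 4 was 5.94 to 6.66, against 5.16 to 6.36 under PBS. Of 6 endothelial markers 1 rose on each of these days, on day 4 Clec4g by 0.46. Of 6 stellate cell and fibroblast markers 1 rose on day 1 (Des, 0.30) and 2 fell, Acta2 (-0.56) and Col3a1 (-0.53), and Dcn rose on day 4 (0.37). Of 6 hepatocyte markers 2 fell on day 1, Ttr (-0.20) and Alb (-0.14). Of 5 periportal markers 2 fell, Etnppl (-2.37) and Cyp2f2 (-0.65), and of 9 pericentral markers Lgr5 rose (0.81) and 2 fell, with Cyp1a2 at -0.65. Under amiodarone 60 mg/kg 1 of 5 measured intestinal markers rose on days 4 and 11, on day 11 Fabp2 by 0.81, and 2 of 5 periportal markers fell on each of these days. On day 11 Clec4g (-0.40) and Dcn (-0.23) also fell. Of all genes under amiodarone 60 mg/kg, 4.01% were higher and 2.2% lower on day 4, and 4.24% and 2.81% on day 11. The part of other cell types in the Cyp3a results was not tested.

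Cyp3a44, a copy known from female mouse liver, followed Cyp3a11. It rose under amiodarone 60 mg/kg by 0.88 on day 4 (limma, adjusted p = 8.62e-05) and fell by 0.73 on valproic acid day 1 (0.000506), and its amiodarone slope on dose rank was 0.23 per step (0.000211).

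In the 15 comparisons with vehicle, where 3.1% of the tests of all genes were called, the receptor genes passed the test only where stated here. Nr1i2, the gene of PXR, rose under amiodarone 60 mg/kg on day 11 (0.48, limma, adjusted p = 0.0105) and was not called on day 1 (0.47, 0.138) or day 4 (0.19, 0.608), nor under valproic acid or tetracycline. Nr1i3, the gene of CAR, rose with amiodarone on day 1 (0.70, 0.047) and with valproic acid on day 11 at 500 mg/kg (0.62, 0.00917) and 250 mg/kg (0.56, 0.0355). Of 24 measured regulators of Cyp3a transcription, 6 fell and 1 rose on valproic acid day 1, when 7.73% of all genes fell and 7.99% rose: the clock-controlled factor Dbp fell by 1.53 (1.47e-12), and Cebpb, a factor of the acute phase response, rose by 0.61 (0.00956). On day 11 Foxa3 fell by 1.01 (1.45e-06) at 500 mg/kg.

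The known targets of PXR and CAR were counted in the same livers, beside the shares of all genes: under amiodarone 60 mg/kg 0.674%, 4.01% and 4.24% were higher on days 1, 4 and 11, and under valproic acid 500 mg/kg 7.73% were lower on day 1 and 5.89% higher on day 11. Of 14 measured oxidation genes, 7 rose under amiodarone 60 mg/kg on each of the 3 days (medians 0.41, 0.40 and 0.41), with 0, 2 and 1 falling. Cyp2b10, the usual CAR target, rose by 1.86, 1.71 and 2.23 on days 1, 4 and 11 (adjusted p = 0.00125, 0.000915 and 4.32e-07), and Cyp2c55 by 1.15, 2.10 and 1.29. On valproic acid day 1, 5 oxidation genes fell and 0 rose, with Cyp2c55 at -2.50 and Cyp2b10 not called (-0.32, adjusted p = 0.683). Cyp2b10 had a low PBS signal there (mean 3.13, against 3.1 for the median of all probe set means), so a fall could hardly show. By day 11 at 500 mg/kg 10 of the 14 rose and 0 fell, led by Cyp2b9 (4.48) and Cyp2b10 (3.93, adjusted p = 3.49e-15), while Cyp3a11 and Cyp3a25 overlapped PBS. The PBS means of Cyp2b9 and Cyp2b10 on day 11, 3.16 and 2.76, were also low. Cyp2b10 was already up by 3.30 on day 4 (6.32e-10).

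Of 14 conjugation genes, 11 fell and 0 rose on valproic acid day 1 (median -0.60), among them Gsta2 (-1.81) and Papss2 (-1.68), and 8 rose on day 11, led by Gstt3 (2.22). Of all genes, 7.73% were called lower on day 1 and 5.89% higher on day 11. Under amiodarone 1, 5 and 7 rose on days 1, 4 and 11, with Gstm3 at 1.80 and Gstm4 at 1.29 on day 4. Of 8 transporters 4 fell on valproic acid day 1, with Slco1a4 at -1.81, and 4 rose on day 11, with Slco1a4 at 1.35. Under tetracycline 133 mg/kg 0 of these oxidation, conjugation and transport genes were called on any day. Of 13 genes for electron donors and haem supply, 3 fell on valproic acid day 1, the cytochrome b5 reductase Cyb5r3 by 0.94, and under amiodarone the haem synthesis gene Cpox rose by 0.76 on day 11.

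**Figure D4:**
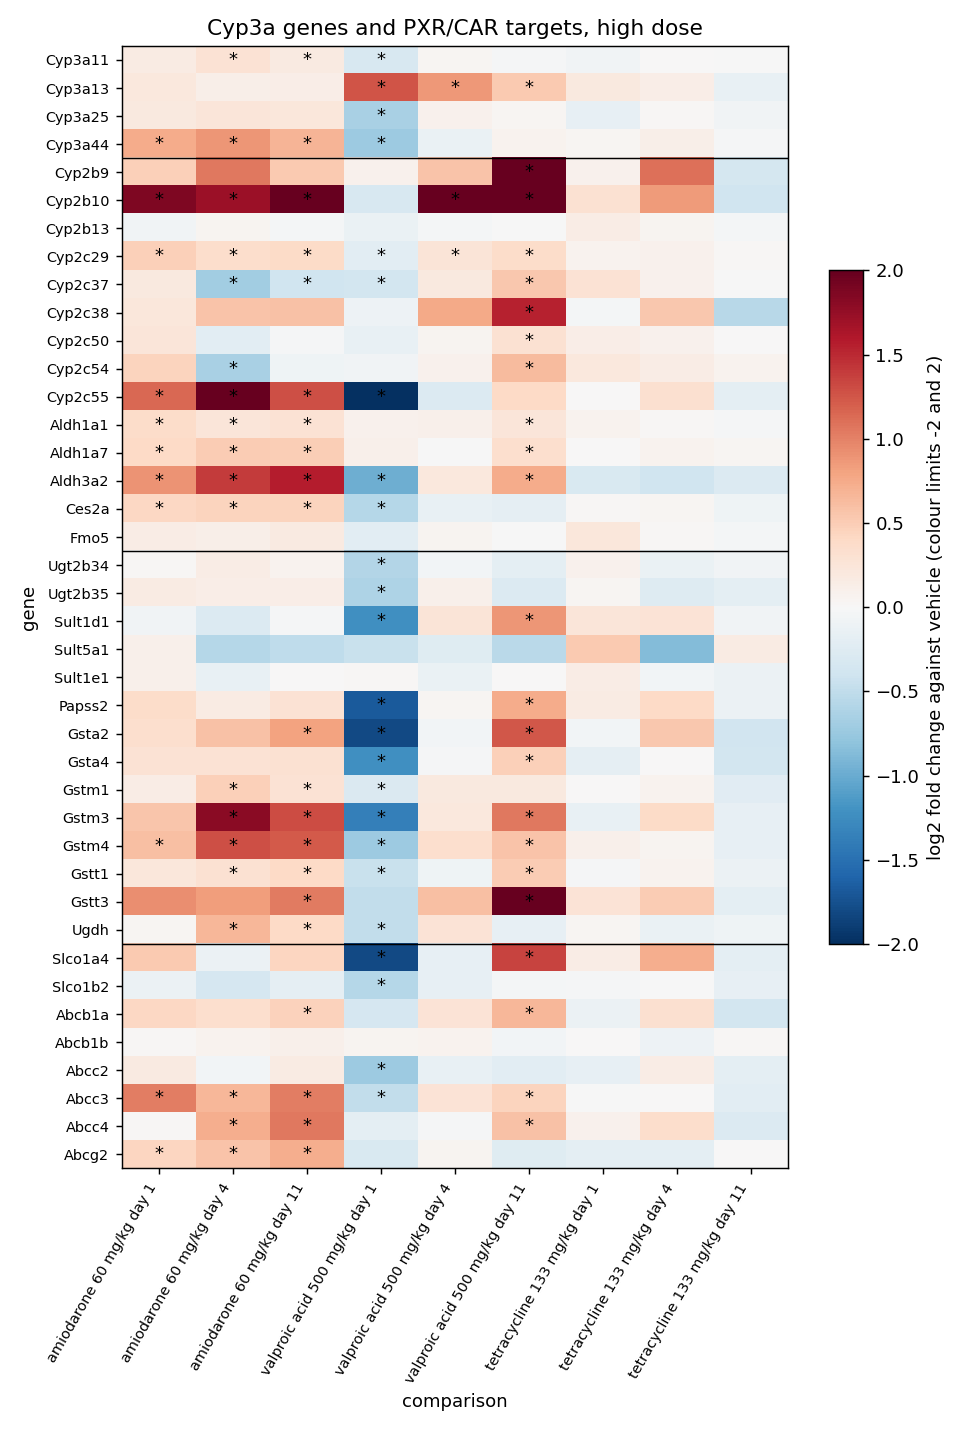
Log2 fold change against vehicle at the highest dose of each drug (columns) for the Cyp3a genes, the PXR and CAR oxidation, conjugation and transport genes (rows, separated by lines); colours end at -2 and 2, and asterisks mark an adjusted p under 0.05. Valproic acid day 1 holds asterisks in blue cells for 5 oxidation, 11 conjugation and 4 transport genes and a red one for Cyp3a13, day 11 is red in many target genes with Cyp3a11 and Cyp3a25 pale, and the tetracycline columns hold no asterisk.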

How the data were processed

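The deposited log2 values are RMA output, per the submitters' processing notes, and the version of RMA is not given in the sources used here. Of 17306 probe sets, 842 had no gene symbol and 0 had several, which leaves 16464. Each Cyp3a gene had 1 probe set. Groups, doses and days came from the labels. All 95 arrays were fitted with limma 3.58.1 in R 4.3.3, with a mean for each of 21 groups (residual degrees of freedom 74), and 43 contrasts were tested. P-values were adjusted by Benjamini-Hochberg over 16464 genes in each. The fit was tested on simulated data. Single comparisons and gene differences also had exact permutation tests. Promoters and gene names came from RefSeq GRCm38.p6 tables, and windows were aligned with Biopython 1.88. Figures used matplotlib 3.10.9 and Python 3.11.15.

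The members, gene lists and tests were chosen with earlier results of these data known. Named genes were the 3 members and Nr1i2, Nr1i3, Cyp2b10 and Cyp2c55. Others were taken from the 5 genes most and the 3 least correlated with each member. The called list genes with the largest changes (up to 3 each way) were a further source. Not all genes from these sources are printed. Por and other list genes without a probe set given were not analysed here. Alternatives were array quality weights, a fit on only the arrays compared, dim probe sets left out, quantile normalization, median centring, blocks of sample numbers, a variance trend with a robust fit, medians, and leaving out each array. The number of arrays limits the precision.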

Additional observations from a re-analysis of the deposited data

Results flagged for a closer look

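In 5 of 63 gene and group combinations 1 array stood apart from the rest of its group by Dixon's test, which chance does in about 1 in 20 groups. For Cyp3a11 on valproic acid day 1, array 079 was lowest at 12.54, with the next at 12.74. For Cyp3a13 on day 11, array 056 of valproic acid 125 mg/kg was highest at 10.1 (next 9.42), and array 067 of 250 mg/kg was highest at 10.55 (next 9.82). For Cyp3a25 under amiodarone 60 mg/kg, array 013 was lowest at 11.74 on day 1 (next 11.95), and array 093 was highest at 12.02 on day 4 (next 11.92).

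The valproic acid effect at 500 mg/kg differed between days by tested contrasts. For Cyp3a11 it was higher on day 4 than on day 1 by 0.37 and on day 11 by 0.29. For Cyp3a25 the same differences were 0.74 and 0.70. For Cyp3a13 the day 11 effect minus the day 1 effect was -0.73.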

How the results depend on the processing

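Of 945 values recomputed under other settings, 919 kept their side of the threshold, 9 lost and 17 gained a call, and 0 called values reversed. Of 1452 values with 1 array left out, the same counts were 1422, 27, 3 and 0. Among the values that kept their side, 31 and 62 uncalled ones changed sign. Of the gains under other settings, 9 came from the limma test of gene differences and others were unadjusted exact permutation p-values, all given below. Those did not use the test or adjustment of the main result. The cause of each change was not tested, apart from fewer arrays or genes in a fit. Fitted on only the arrays compared, calls were lost for Cyp3a11 under amiodarone on day 4 (0.29, adjusted p = 0.0604) and day 11 (0.17, 0.127), Cyp3a13 at valproic acid 250 mg/kg (0.58, 0.133), the Cyp3a25 amiodarone slope (0.077, 0.0512), and the Cyp3a11 differences valproic acid day 4 minus day 1 (0.37, 0.0677), valproic acid minus tetracycline on day 1 (-0.26, 0.214) and amiodarone minus tetracycline on day 4 (0.28, 0.112). Quantile normalization lost amiodarone minus valproic acid on day 11 for Cyp3a13 (-0.34, 0.0584), and blocks of sample numbers the Cyp3a25 slope (0.069, 0.0647). Cyp3a25 under amiodarone was called without dim probe sets on day 4 (0.24, 0.0408) and day 11 (0.22, 0.0322), and with a variance trend on day 11 (0.22, 0.0472). Unadjusted exact permutation p-values were under 0.05 for Cyp3a11 under amiodarone day 1 (0.17, p = 0.0286) and tetracycline 44 mg/kg (-0.086, 0.0476), and for Cyp3a25 under amiodarone day 11 (0.22, 0.00794), tetracycline 133 mg/kg day 1 (-0.17, 0.0286) and 44 mg/kg (-0.23, 0.0238).

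The limma test of gene differences, added after the data were seen, called Cyp3a11 minus Cyp3a13 under valproic acid on day 1 (-1.58), day 4 (-0.82), day 11 (-0.55) and at 250 mg/kg (-0.70), Cyp3a13 minus Cyp3a25 likewise (1.91, 0.78, 0.48 and 0.65), and Cyp3a11 minus Cyp3a25 on day 1 (0.33).

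With 1 array left out, calls were lost or gained for 8 results, over these ranges: Cyp3a11 amiodarone minus tetracycline day 4, 0.23 to 0.32 (lost without array 040, 0.23); Cyp3a11 valproic acid minus tetracycline day 1, -0.30 to -0.21 (lost without 077, -0.22, or 079, -0.21). For Cyp3a13, amiodarone minus valproic acid day 11 ran from -0.45 to -0.28 (lost without 012, -0.40, 033, -0.36, 039, -0.40, or 049, -0.28), valproic acid minus tetracycline day 11 from 0.56 to 0.74 (lost without 049, 0.56, or 002, 0.58), and on day 4 from 0.66 to 0.79 (lost without any of 004, 007, 021, 035, 044, 054, 060, 068, 075, 085, 087, 088 and 092). For Cyp3a25, amiodarone day 4 ran from 0.12 to 0.32 (called without 041, 0.32, or 044, 0.30), day 11 from 0.18 to 0.27 (called without 032, 0.27), and the slope from 0.065 to 0.090 (lost without 002, 020, 033, 062 or 073).

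Counts of genes called over the whole table moved by over 1.5 times in some settings. On only the arrays compared they were 32 for amiodarone 60 mg/kg day 1 (131 as reported), 0 at 20 mg/kg (53), 1448 for valproic acid day 1 (2589), 251 on day 4 (389), 214 at 250 mg/kg (701), 5 at 125 mg/kg (9) and 12 for tetracycline day 1 (107). Array weights gave 247 for tetracycline day 1, 25 on day 4 (0) and 20 at 44 mg/kg (4). Without dim probe sets they were 113 for amiodarone 20 mg/kg, and 218, 5 and 19 for these tetracycline groups. Blocks gave 16 for tetracycline day 1 and 11 at 44 mg/kg; quantile normalization and a variance trend each gave 2 on day 4. Without arrays 049, 056 and 067 the counts were 410 at 250 mg/kg and 1 at 125 mg/kg. Leaving out 1 array gave as few as 219 for valproic acid day 4 (without 004), 411 at 250 mg/kg (without 067) and 18 for tetracycline day 1 (without 077), and 0 to 140 for amiodarone 20 mg/kg. No paired analysis was possible because each array has its own sample number and no number is shared between groups.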
